A study of Mus musculus with 4 samples.

Results

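The genes described here are 10 genes used to recognise lymphatic endothelial cells, the cells that line lymphatic vessels: Prox1, Mmrn1, Nts, Ccl21a, Lyve1, Reln, Pdpn, Foxc2, Gata2 and Stab2. They were taken by symbol from the gene lists of the deposited files, where 11 gene IDs of 32286 genes carried these symbols, because Ccl21a stood on 2 IDs. The rule picks genes by symbol and not by a measured value. RNA was measured one cell at a time in mouse popliteal vessels with a 3' droplet method, which counts each RNA molecule by a unique molecular identifier (UMI). All mice were adult and carried the cross WT1xAi9, a Cre recombinase with EGFP at the Wt1 locus and an Ai9 tdTomato reporter at Rosa26, and all received Evans blue in the footpad before dissection. For popliteal lymphatic vessels (PLV) there were 2 libraries, PLV replicates 1 and 2 (PLV1 and PLV2 below), made from different pools of 2 mice and a digestion of 30 min with collagenase I, Dispase II, DNAse and Liberase. The third library, called mixed here, held PLV and popliteal blood vessel (BV) cells of 1 pool of 2 mice, digested for 60 min with collagenase I and Dispase II and without the other enzymes. Vessel, digestion, mice and library therefore differed together between PLV and mixed. The counting software differed with them, Cell Ranger 6.1.2 for PLV and 4 for mixed. The parts of all these in any difference cannot be told apart.

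In lymphatic endothelium the homeobox factor Prox1 sets and keeps the lymphatic fate. Small blind-ended capillaries take up fluid and draw in dendritic cells with the chemokine Ccl21, and they carry the hyaluronan receptor Lyve1. Collecting vessels such as the popliteal ones are wrapped in muscle and hold valves, whose formation needs the transcription factors Foxc2 and Gata2, and mature collectors are known for low Lyve1. Stab2 is a scavenger receptor best known from sinusoidal endothelium of liver, spleen and lymph node.

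After filtering, 1909 cells of PLV1, 516 of PLV2 and 994 of the mixed library remained, with medians of 3372, 4887 and 6162 UMIs per cell. No barcode was shared between the kept cells of any pair of libraries. Cells were clustered with the 10 genes left out, and classes were named from other markers, so that the levels below did not choose the cells. The class called lymphatic endothelial-like (LEC-like) was named from markers such as Flt4, Sema3d and Tbx1, of which 9 of 10 were raised in the LEC-like cluster of each library. It held 192 cells with 2285453 UMIs in PLV1, 59 cells with 890641 UMIs in PLV2 and 53 cells with 828566 UMIs in the mixed library. A few deep cells weigh heavily in these sums: cells over 20000 UMIs numbered 30, 12 and 11 in this order and held 71.0%, 61.3% and 73.4% of the LEC-like UMIs. Levels are given as CPM, the UMIs of a gene per 1000000 UMIs of the summed cells, with exact 95% Poisson intervals that cover counting error only. In such sums, fewer cells with a transcript and less of it per cell cannot be told apart. UMIs of a 3' method do not grow with transcript length, but capture can still differ between genes.

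In GRCm38 with GENCODE annotation all 10 are protein-coding genes. Prox1 (ENSMUSG00000010175) lies at chr1:190118035-190170714, Reln (ENSMUSG00000042453) at chr5:21884454-22344702, Pdpn (ENSMUSG00000028583) at chr4:143267431-143299564 and Lyve1 (ENSMUSG00000030787) at chr7:110850607-110863239, each on the minus strand. Nts (ENSMUSG00000019890, chr10:102481756-102490486) and Stab2 (ENSMUSG00000035459, chr10:86841198-87008025) share a chromosome and the minus strand. On the plus strand are Mmrn1 (ENSMUSG00000054641, chr6:60924976-60989378), Gata2 (ENSMUSG00000015053, chr6:88193891-88207032) and Foxc2 (ENSMUSG00000046714, chr8:121116171-121118895).

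The Ccl21a counts lay on 1 of the 2 IDs, ENSMUSG00000094686 at chr4:42772860-42773993 on the minus strand, while the ID on an unplaced scaffold had 0 UMIs. This gene has near-identical copies. The Ccl21b transcript of GENCODE M21, 402 bases of coding sequence, equalled Ccl21a at 400 bases (99.5% identity) and differed at 2. The stretches around these 2 bases show how little separates the copies, with the differing base in capitals and positions counted from the first base of the start codon.
Ccl21a, bases 69 to 98: cagtgatggagggggTcaggactgctgcct
Ccl21b, bases 69 to 98: cagtgatggagggggAcaggactgctgcct
Ccl21a, bases 179 to 208: cggcaatcctgttctCaccccggaagcact
Ccl21b, bases 179 to 208: cggcaatcctgttctTaccccggaagcact
The annotated Ccl21a transcript runs to 870 bases, and the IDs named Ccl21b or Ccl21c together had 1 UMI in the kept cells of all libraries. Counts named Ccl21a here are therefore uncertain as to the copy.

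RefSeq promoter windows (GRCm38.p6, the 250 bases before each annotated start) were present for 8 of the 10 genes, as 10 windows. The letters GATAA, on either strand, are the core bound by GATA factors such as Gata2, and GTAAACA, on either strand, is a core of forkhead factors such as Foxc2. Matches to GATAA were found in 2 of the 10 windows, those of Mmrn1 and Nts, against 22.6% of 32851 windows of all genes. A match to GTAAACA was found in 1 window, that of Pdpn, against 3.17% of all windows. The windows of Mmrn1 and Nts are shown because they hold the GATAA matches, and that of Prox1 because this factor defines the lineage. They are given 5' to 3' as the gene reads, leaving out bases in the gene's own GENCODE exons, and with GATAA in capitals.
Prox1, chr1:190170828-190171077, minus strand: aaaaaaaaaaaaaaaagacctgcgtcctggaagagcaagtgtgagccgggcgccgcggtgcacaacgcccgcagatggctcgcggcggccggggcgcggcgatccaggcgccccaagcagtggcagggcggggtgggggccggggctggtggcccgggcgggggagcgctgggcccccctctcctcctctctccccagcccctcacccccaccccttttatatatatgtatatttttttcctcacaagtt
Mmrn1, chr6:60944067-60944316, plus strand: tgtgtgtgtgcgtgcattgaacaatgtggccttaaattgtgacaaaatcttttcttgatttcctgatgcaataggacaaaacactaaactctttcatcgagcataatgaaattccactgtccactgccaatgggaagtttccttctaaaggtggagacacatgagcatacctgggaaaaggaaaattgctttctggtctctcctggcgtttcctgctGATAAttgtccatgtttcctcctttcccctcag
Nts, chr10:102490487-102490668, minus strand: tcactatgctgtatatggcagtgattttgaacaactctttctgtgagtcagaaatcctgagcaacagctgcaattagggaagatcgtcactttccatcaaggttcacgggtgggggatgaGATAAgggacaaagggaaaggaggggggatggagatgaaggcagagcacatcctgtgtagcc
The Mmrn1 window lies inside the longer span that GENCODE gives this gene. A match is a description of letters and not of binding.

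Prox1 was found at a similar level in LEC-like cells of all libraries. It stood at 759 CPM (95% interval 724 to 796) in PLV1, 790 CPM (733 to 851) in PLV2 and 676 CPM (621 to 734) in the mixed library. All other classes named in all 3 libraries lay far below, at 13.3 CPM or less, and Prox1 had 0 UMIs in blood endothelial-like (BEC-like) cells of PLV1, 1 UMI in those of PLV2 and 12 in those of the mixed library. Of all Prox1 UMIs of kept cells, 98.9%, 88.3% and 95.4% fell in the LEC-like class of PLV1, PLV2 and mixed. A Prox1 UMI was seen in 82.3%, 93.2% and 83.0% of LEC-like cells of PLV1, PLV2 and mixed.

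Mmrn1, which encodes the secreted protein multimerin 1, was the highest of the 10 genes in LEC-like cells of both PLV libraries. Its level was 1165 CPM (1121 to 1210) in PLV1, 1420 CPM (1343 to 1501) in PLV2 and 758 CPM (700 to 820) in the mixed library. The mixed library was thus the lowest, and both PLV libraries lay above it. Other classes named in all libraries had 5.32 CPM or less. A small platelet-like cluster of PLV1 (9 cells) had 5 Mmrn1 UMIs, or 388 CPM, a gene that platelets are known to carry. Mmrn1 was also the most widely detected, in 86.5%, 100% and 86.8% of LEC-like cells. The PLV2 shares rest on which cells the class holds: an unnamed cluster of 75 shallow cells there (median 1019 UMIs) had a Mmrn1 UMI in 41.3% and a Prox1 UMI in 34.7% of cells, and at Leiden resolution 0.5 the LEC-like class of PLV2 grew from 59 to 108 cells.

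Nts encodes the peptide neurotensin. Its level in LEC-like cells was 536 CPM (506 to 566) in PLV1, 474 CPM (430 to 521) in PLV2 and 1955 CPM (1861 to 2053) in the mixed library, where it was the highest of the 10 genes. A single cell with 135986 UMIs held 655 of the 1620 Nts UMIs of the mixed LEC-like cells (40.4%), and without that cell the level was 1393 CPM, still above both PLV libraries. Droplets of the mixed library that were near empty (under 50 UMIs) held Nts at 77.0 CPM, and the other classes of that library reached at most 33.3 CPM, in muscle-like cells. In the fibroblast-like cells of the same library it was 0.473 CPM, from 1 UMI. The source of these low values was not tested.

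**Figure D1:**
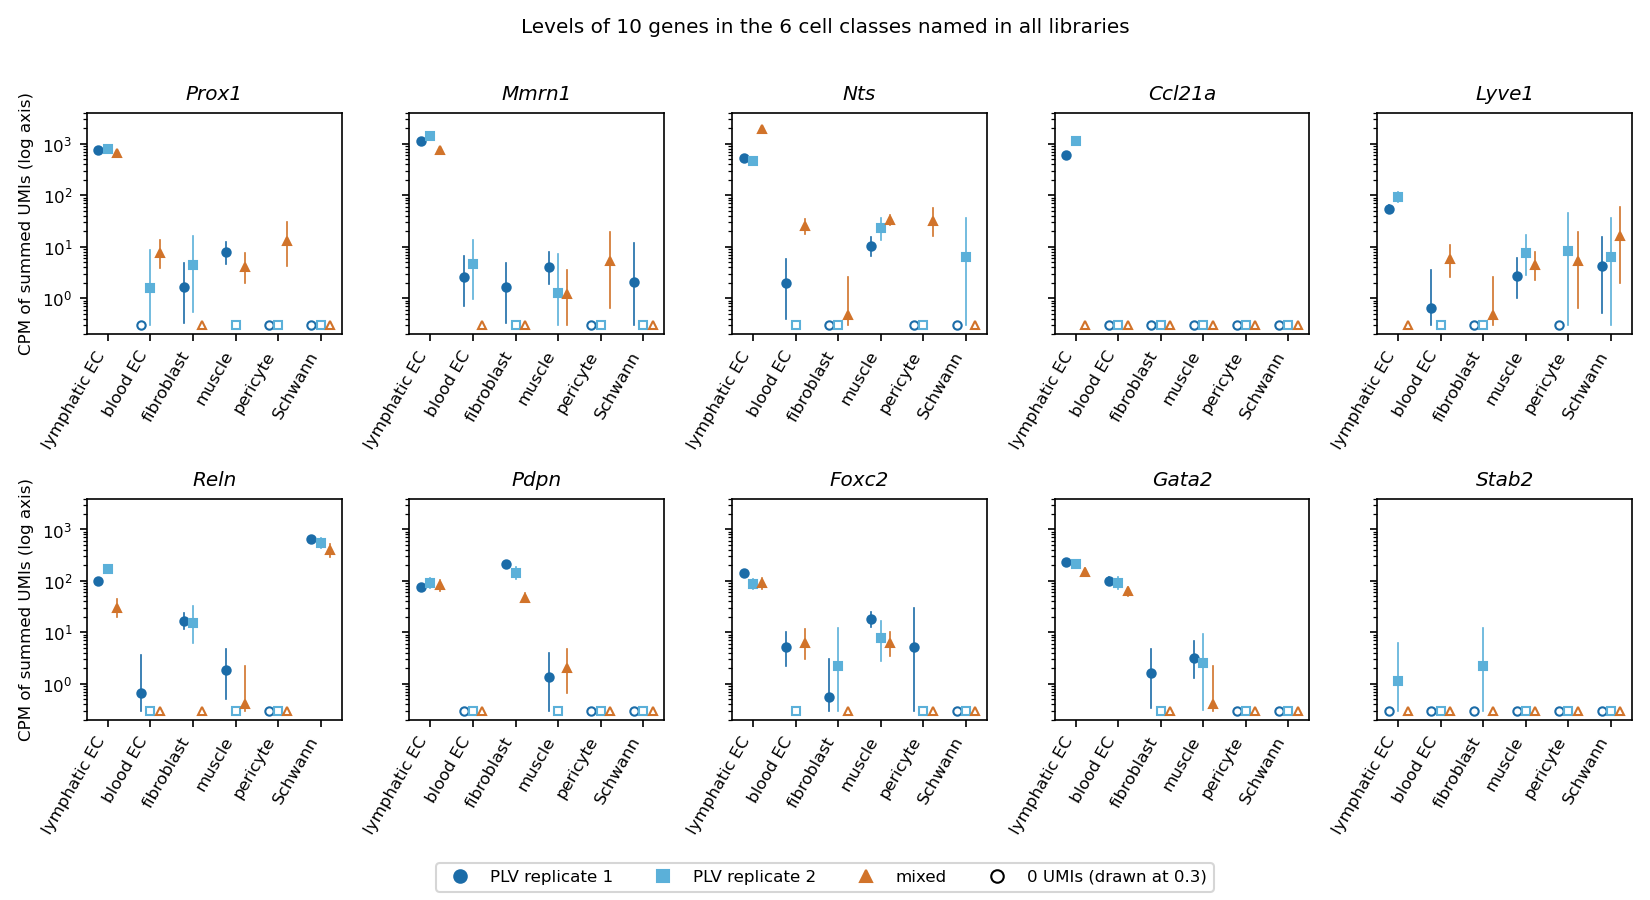
CPM of summed UMIs on a log axis (vertical) of each gene in the 6 classes named in all 3 libraries (horizontal), with 1 symbol per library, 95% Poisson intervals as lines and open symbols for 0 UMIs. Prox1, Mmrn1, Nts and Foxc2 stand highest in lymphatic endothelial-like cells of every library, Reln in Schwann-like cells, and Pdpn in fibroblast-like cells of both PLV libraries.

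Foxc2 and Gata2, the transcription factors of valve formation, were measured at lower levels. Foxc2 in LEC-like cells stood at 140 CPM (125 to 156), 87.6 CPM (69.2 to 109) and 90.5 CPM (71.2 to 113) in PLV1, PLV2 and mixed, while the highest of the other 5 shared classes reached 18.0 CPM in PLV1 and 7.66 CPM in PLV2 (both muscle-like cells) and 6.35 CPM in mixed (BEC-like cells). Gata2 in LEC-like cells stood at 236 CPM (216 to 257), 210 CPM (181 to 242) and 148 CPM (123 to 177). Gata2 was shared with the blood side, at 99.8, 91.0 and 62.8 CPM in BEC-like cells, so that the ratio of LEC-like to BEC-like was 2.36, 2.31 and 2.36 in the 3 libraries. The highest Gata2 level outside the vessel lining was in mast-like cells of PLV1 (23 cells, 95 UMIs, 2580 CPM), a lineage known to depend on Gata2.

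Reln and Pdpn were not confined to the lymphatic lining. Reln, the secreted glycoprotein reelin, had 101 CPM (88.0 to 115), 173 CPM (147 to 202) and 30.2 CPM (19.5 to 44.5) in LEC-like cells, and was higher in Schwann-like cells of every library, at 645, 557 and 394 CPM. The ranges of the 2 classes over libraries did not overlap. Pdpn, the membrane glycoprotein podoplanin, had 75.7 CPM (64.8 to 87.9), 92.1 CPM (73.2 to 114) and 83.3 CPM (64.8 to 105) in LEC-like cells. In fibroblast-like cells it had 213, 144 and 47.3 CPM, so the order of the 2 classes turned between the PLV libraries and the mixed one and their ranges overlapped. In BEC-like cells Pdpn had 0 UMIs in every library.

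Ccl21a and Lyve1 were seen in few cells. Ccl21a had 597 CPM (566 to 630) in PLV1, 1136 CPM (1067 to 1208) in PLV2 and 0 UMIs in the mixed library, where the limit for a count of 0, taken as 3 UMIs, is 3.62 CPM. Its UMIs came from 18 of 192 cells (9.38%, 95% Clopper-Pearson interval 5.65 to 14.4) and 5 of 59 cells (8.47%, 2.81 to 18.7). In the mixed library 0 of 53 cells had one (interval up to 6.72%), so the intervals of the shares of cells overlapped between the libraries. A cell of PLV2 held 573 of its 1012 Ccl21a UMIs (56.6%), and without it the level there was 517 CPM. No other named class of any library had a Ccl21a UMI, and the near-empty droplets of the mixed library had 2.

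Lyve1 stood at 55.6 CPM (46.3 to 66.1) in PLV1 and 93.2 CPM (74.2 to 116) in PLV2, with 0 UMIs in LEC-like cells of the mixed library. It was seen in 7 cells and 2 cells, or 3.65% and 3.39% of LEC-like cells. In PLV2, 1 cell held 79 of the 83 UMIs, and without it the level there was 4.54 CPM. The levels of both genes depend on how cells are weighted: without cells over 20000 UMIs, Lyve1 stood at 190 and 229 CPM and Ccl21a at 1102 and 1274 CPM in PLV1 and PLV2, and as the mean of the cells' CPM, Lyve1 stood at 104 and 130 CPM and Ccl21a at 1052 and 1059 CPM. Lyve1 was higher than in LEC-like cells in macrophage-like cells of the mixed library, at 220 CPM (39 UMIs). It was also higher in an unnamed cluster of PLV1 led by Retnla and Lyz2, at 420 CPM (138 UMIs). An unnamed cluster of PLV2 with macrophage and mast cell genes had 108 CPM (69.9 to 159), which overlapped the interval of LEC-like cells there. Macrophages are known to carry Lyve1. The 7 macrophage markers of the naming list summed to 15.3, 13.5 and 2.41 CPM (35, 12 and 2 UMIs) in the LEC-like sums of PLV1, PLV2 and mixed, with 3, 6 and 6 of the 7 at 0, C1qa, C1qc and Adgre1 in each. The Lyve1-bearing cells themselves held 3 and 2 of these UMIs in PLV1 and PLV2, and 6 and 0 UMIs of Mrc1, another gene of macrophages and of lymphatic endothelium. Their part in the Lyve1 level was not tested. Near-empty droplets of the mixed library held 19 Lyve1 UMIs, or 19.0 CPM. Stab2 had 1 UMI in LEC-like cells of PLV2 and 0 in the others, which allows up to 1.31 CPM in PLV1, and 3.62 CPM in the mixed library.

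The cells with a Ccl21a UMI differed from the rest in others of the 10 genes. Every Lyve1-bearing LEC-like cell also had Ccl21a, Reln, Prox1 and Mmrn1 UMIs, 7 of 7 in PLV1 and 2 of 2 in PLV2. Reln was found in 17 of the 18 Ccl21a-bearing cells of PLV1 and 4 of the 5 of PLV2. Its level was 370 CPM in the cells with Ccl21a against 42.6 CPM in those without in PLV1, and 937 against 99.7 CPM in PLV2. The cells without Ccl21a in the mixed library had 30.2 CPM. Mmrn1 was also higher with Ccl21a, at 1610 against 1069 CPM and 3673 against 1205 CPM, while Prox1 differed little, at 887 against 731 CPM and 873 against 783 CPM. Without the Lyve1-bearing cells, the Ccl21a-bearing cells had Reln at 271 and 452 CPM and Mmrn1 at 1315 and 2860 CPM in PLV1 and PLV2. In the 7 and 2 Lyve1-bearing cells, Gata2 stood at 135 CPM (12 UMIs, all in 1 cell) and 19.5 CPM (1 UMI). Cells with neither Ccl21a nor Lyve1 had Gata2 at 231 and 226 CPM. Foxc2 stood at 169 CPM (15 UMIs) and 0 UMIs in the Lyve1-bearing cells, against 134 and 93.5 CPM in the cells with neither. These values describe cells of 2 libraries and have no test, since cells of a library are not replicates.

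**Figure D2:**
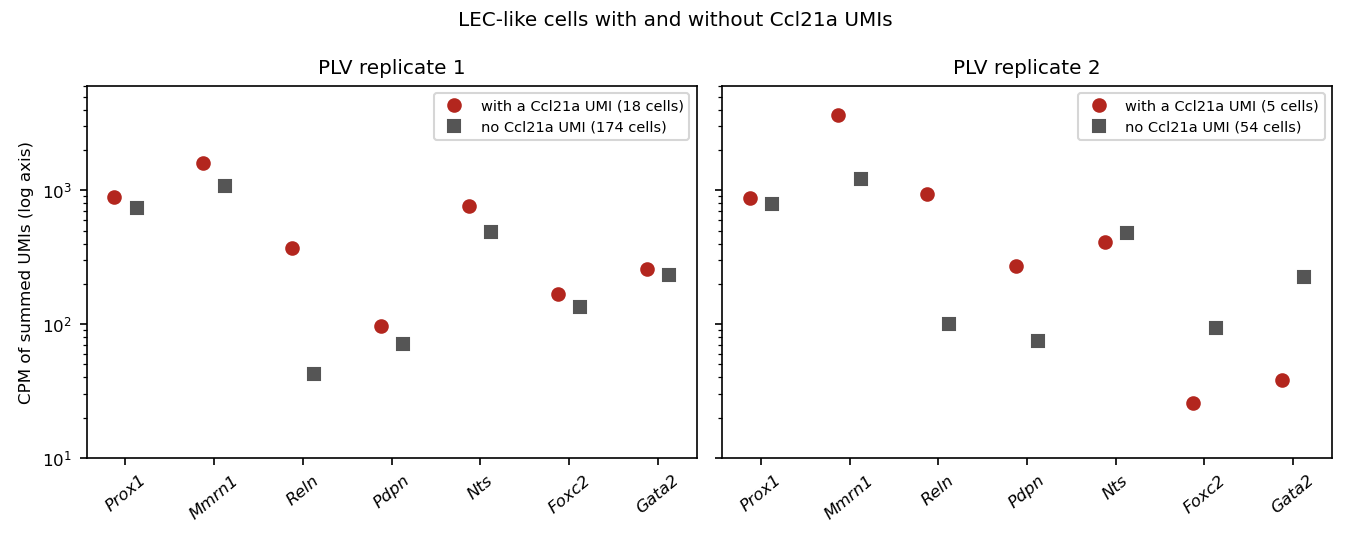
CPM on a log axis (vertical) of 7 genes (horizontal) in LEC-like cells with a Ccl21a UMI (red circles) and without one (grey squares), 1 panel per PLV library. Reln and Mmrn1 lie higher in the cells with Ccl21a in both panels, and Foxc2 and Gata2 lie lower there in PLV2 but not in PLV1.

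Cells with Ccl21a were deeper, with medians of 6397 and 10412 UMIs against 3254 and 7462 UMIs in those without. Co-detection was therefore also counted after thinning each cell to 1500 UMIs, which left 148, 57 and 48 LEC-like cells and set aside 44, 2 and 5 shallower ones. Lyve1 and Ccl21a then stood together in 5 of 5 and 1 of 1 Lyve1-bearing cells of the PLV libraries, 10.6 and 11.4 times the share expected from the product of the single shares. As deposited these ratios were 10.7 and 11.8. Because every Lyve1-bearing cell also had Ccl21a at both depths, the ratios stand at the highest value they can take. Their likeness is therefore not read as stability under thinning. For Reln and Ccl21a the ratio was 3.30 and 1.69 as deposited and 7.05 and 3.80 after thinning. The highest value this ratio can take rises as fewer cells show Reln. That share fell from 28.6% and 47.5% as deposited to 12.2% and 15.8% after thinning. The rise of the ratio is therefore not read as a closer link.

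Foxc2 and Gata2 both had a UMI in 34.4%, 35.6% and 32.1% of LEC-like cells, 1.31, 1.20 and 1.48 times the product of their shares. Such ratios as deposited were not particular to this pair. For Pdpn and Foxc2 they were 1.43, 1.20 and 1.68, for Nts and Foxc2 1.31, 1.31 and 1.34, and for Pdpn and Reln 1.99, 1.28 and 1.51. Cells with Foxc2 were deeper, with medians of 8406, 12328 and 19961 UMIs against 2179, 5550 and 3653 UMIs in those without. After thinning the ratios of Foxc2 and Gata2 were 1.66, 1.90 and 1.5, on 14, 3 and 2 cells with both. In PLV1 those of the other pairs were then 0.538 for Pdpn and Foxc2, 1.18 for Nts and Foxc2 and 1.87 for Pdpn and Reln, on 2, 9 and 5 cells. Foxc2 and Ccl21a were seen together about as often as the product, in 7 cells of PLV1 and 2 of PLV2 (0.889 and 0.843 times), and in 2 and 0 cells after thinning. A Ccl21a UMI was seen in 7 of 84 cells with Foxc2 and 11 of 108 without in PLV1, and in 2 of 25 and 12 of 123 after thinning. Summed levels did not give 1 order. Foxc2 stood at 168 CPM in cells with Ccl21a against 134 CPM in those without in PLV1, and at 25.7 CPM (2 UMIs) against 93.5 CPM in PLV2. Ccl21a stood lower in cells with Foxc2, at 407 against 1517 CPM in PLV1, while these deeper cells held 771 of its 1365 UMIs. In the thinned cells of PLV1, Ccl21a had 2 UMIs in the 25 cells with Foxc2 and 227 in the 123 without, with few cells holding most of them.

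Prox1 and Mmrn1 were together in 144, 55 and 41 LEC-like cells, close to the product of their shares (1.05, 1.00 and 1.07 times). Shares of cells with a UMI depend on depth, which differed between libraries. Thinned to 1500 UMIs, Prox1 was seen in 66.9%, 70.2% and 54.2% and Mmrn1 in 77.7%, 78.9% and 60.4% of LEC-like cells of PLV1, PLV2 and mixed. In BEC-like cells, which should lack both, the thinned shares were 0, 0 and 1.47% for Prox1 and 0, 3.39% and 0 for Mmrn1. Unthinned, the Prox1 shares there were 0 of 296 cells (95% interval up to 1.24%), 1.49% and 5.17%. Those of Mmrn1 were 1.35%, 4.48% and 0 of 174 cells (up to 2.1%). Unthinned BEC-like cells had medians of 3758, 8216 and 7443 UMIs, against 3498, 7848 and 4959 in LEC-like cells.

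The other genes were seen in fewer LEC-like cells. Gata2 was seen in 59.9%, 62.7% and 54.7% of them, and in 33.8%, 26.3% and 16.7% after thinning, against 16.5%, 11.9% and 9.56% of thinned BEC-like cells. Foxc2 was seen in 43.8%, 47.5% and 39.6%, and after thinning in 16.9%, 10.5% and 16.7%. Nts was seen in 41.7%, 49.2% and 64.2%, and after thinning in 30.4%, 24.6% and 39.6%, so mixed had the largest share both ways. The thinned intervals overlapped, at 23.1 to 38.5%, 14.1 to 37.8% and 25.8 to 54.7%. Pdpn was seen in 37.5%, 47.5% and 39.6% of cells, or 14.9%, 5.26% and 8.33% after thinning. Reln was seen in 28.6%, 47.5% and 18.9%, or 12.2%, 15.8% and 4.17% after thinning, with mixed the lowest both ways. Its thinned intervals overlapped too, at 7.37 to 18.5%, 7.48 to 27.9% and 0.509 to 14.3%. Thinning left the shares of Ccl21a at 9.46%, 8.77% and 0, and those of Lyve1 at 3.38%, 1.75% and 0.

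A Prox1 or Mmrn1 UMI was present, as deposited, in 93.8%, 100% and 92.5% of the cells. The median cell had UMIs of 4, 5 and 4 of the 10 genes. As deposited, 7, 0 and 0 cells had none of them. In the thinned cells a Prox1 or Mmrn1 UMI was present in 92.6%, 89.5% and 79.2%, the median cell had UMIs of 3, 2 and 2 of the genes, and 7 of 148, 4 of 57 and 5 of 48 cells had none, so the order of the libraries was not the same at both depths.

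**Figure D3:**
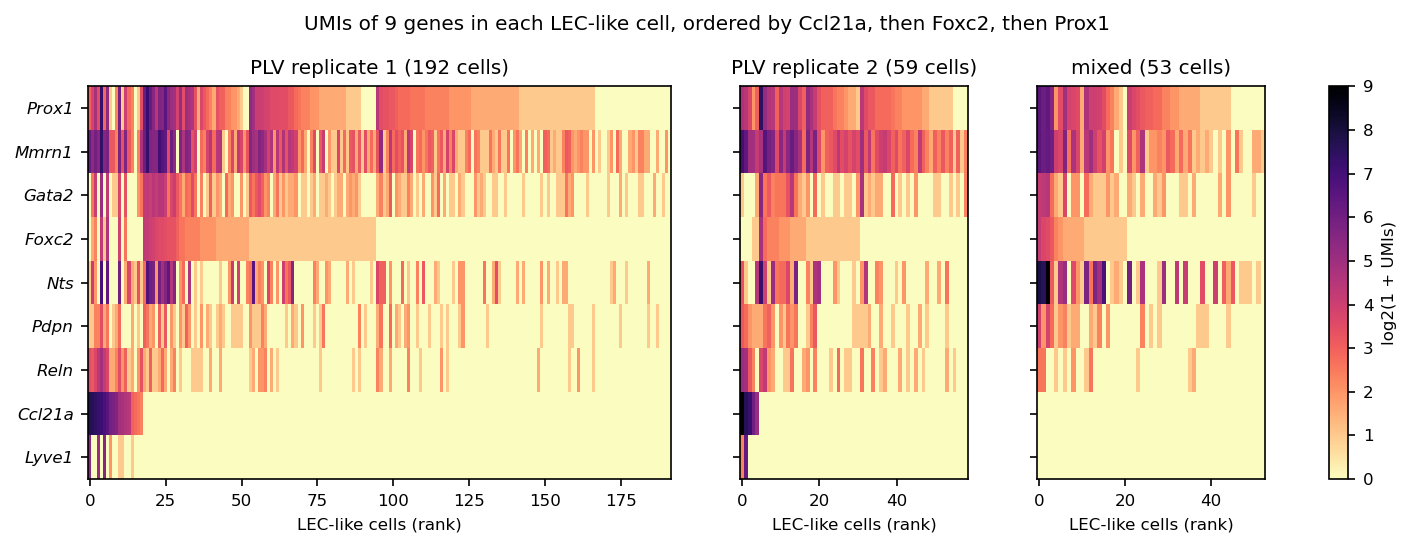
UMIs of 9 genes (rows, colour as log2 of 1 plus the UMI count) in each LEC-like cell (columns), 1 panel per library, with cells ordered by Ccl21a, then Foxc2, then Prox1. The 18 and 5 cells with Ccl21a stand at the left of the PLV panels with the Lyve1 cells among them, and the mixed panel of 53 cells has neither.

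LEC-like and BEC-like cells were compared to ask which of the genes tell the lymphatic from the blood lining. UMI sums of the 3 libraries were tested with edgeR's quasi-likelihood test, with the library as a block. Of the 10 genes, 7 passed the filter on low counts and each of these 7 was higher in LEC-like cells at an adjusted p under 0.05, where 12.8% of the 9282 genes tested were called higher and 26.8% in either direction. A gene could pass that filter by being high in 1 of the classes alone, so this count is not read as support. Ccl21a, Lyve1 and Stab2 did not pass it. The log2 fold change was 9.03 ± 0.31 (SE) for Mmrn1 (edgeR adjusted p = 1.8e-09), 7.70 ± 0.39 for Prox1 (adjusted p = 2.0e-08) and 6.80 ± 0.30 for Nts (adjusted p = 7.0e-09). These sizes rest on few UMIs in BEC-like sums, 4, 3 and 0 for Mmrn1, 0, 1 and 12 for Prox1 and 3, 0 and 40 for Nts. Over the alternatives they ran from 8.51 to 9.49 for Mmrn1, 6.93 to 10.4 for Prox1 and 6.52 to 8.45 for Nts. Foxc2 was at 4.51 ± 0.30 (edgeR adjusted p = 1.8e-07). That size too rests on few UMIs in BEC-like sums, 8, 0 and 10, and ran from 4.23 to 5.05 over the alternatives. Reln was called (adjusted p = 2.4e-08) against 1, 0 and 0 UMIs in BEC-like sums, so its fitted size is not printed, and its level was at least 36.7-fold and 15.8-fold higher in LEC-like cells of PLV2 and mixed. Gata2 had the smallest called difference of the 7, 1.21 ± 0.14 (adjusted p = 1.9e-05), in all 3 libraries. Pdpn was called as well (adjusted p = 2.0e-07), and with 0 UMIs in BEC-like cells its level was at least 38.9-, 19.6- and 43.7-fold higher in LEC-like cells of PLV1, PLV2 and mixed.

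Other genes of lymphatic endothelium were split in this comparison. From a list of 33 lymphatic genes, 29 were tested, of which 14 were higher and 7 lower in LEC-like cells, where 12.8% of all genes tested were called higher and 14% lower, with a median log2 fold change of 0.40 against -0.01 for all genes tested. The copper protein ceruloplasmin, Cp (4.19 ± 0.24), and the scavenger receptor Stab1 (2.95 ± 0.17) were among the higher ones in edgeR's fit. The atypical chemokine receptor Ackr4 was called higher against 1, 0 and 2 UMIs in the BEC-like sums of PLV1, PLV2 and mixed, so its fitted size is not printed. The guidance receptor Robo4 (-1.32 ± 0.15) and the junction cadherin Cdh5 (-0.63 ± 0.12), both shared by blood endothelium, were among the lower ones. From a list of 21 valve genes, all 21 were tested, 13 were higher and 3 lower, with a median of 0.72, and the lower share lay near the 14% of all genes. The cadherin Celsr1 (2.69 ± 0.24) was higher, as were the semaphorin Sema3a and the claudin Cldn11, whose sizes are not printed because BEC-like sums held 0, 0 and 1 and 4, 0 and 1 of their UMIs, and the semaphorin receptor Plxnd1 (-2.17 ± 0.15) was lower.

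Against fibroblast-like cells, 6 of the 7 tested genes were higher in LEC-like cells, with 14.7% of 9614 genes called higher and 32.4% in either direction. Of these, Nts (1 UMI in all fibroblast-like sums), Foxc2 (2), Mmrn1 (3), Gata2 (3) and Prox1 (5) could pass the filter through the LEC-like sums alone, so this count is not read as support either and their fitted sizes are not given. Their edgeR adjusted p lay between 2.1e-07 for Nts and 9.9e-07 for Foxc2. Reln, with 31, 7 and 0 UMIs in fibroblast-like sums, was at 3.07 ± 0.44 (adjusted p = 2.2e-04). Pdpn was the exception, at -0.79 ± 0.35 (adjusted p = 0.11), with the lower level in LEC-like cells of both PLV libraries and the higher one in those of the mixed library. Without the mixed library it was called lower in LEC-like cells, at -1.31 (adjusted p = 4.1e-06). From the same lists, 20 lymphatic genes of 28 tested were higher and 2 lower, and 12 valve genes of 21 were higher and 3 lower, the matrix protein Fn1 among the latter (-3.23 ± 0.36), where 17.7% of all genes tested were called lower. List genes too could pass the filters through the LEC-like sums alone, so the counts of higher genes in both comparisons are not read as support.

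**Figure D4:**
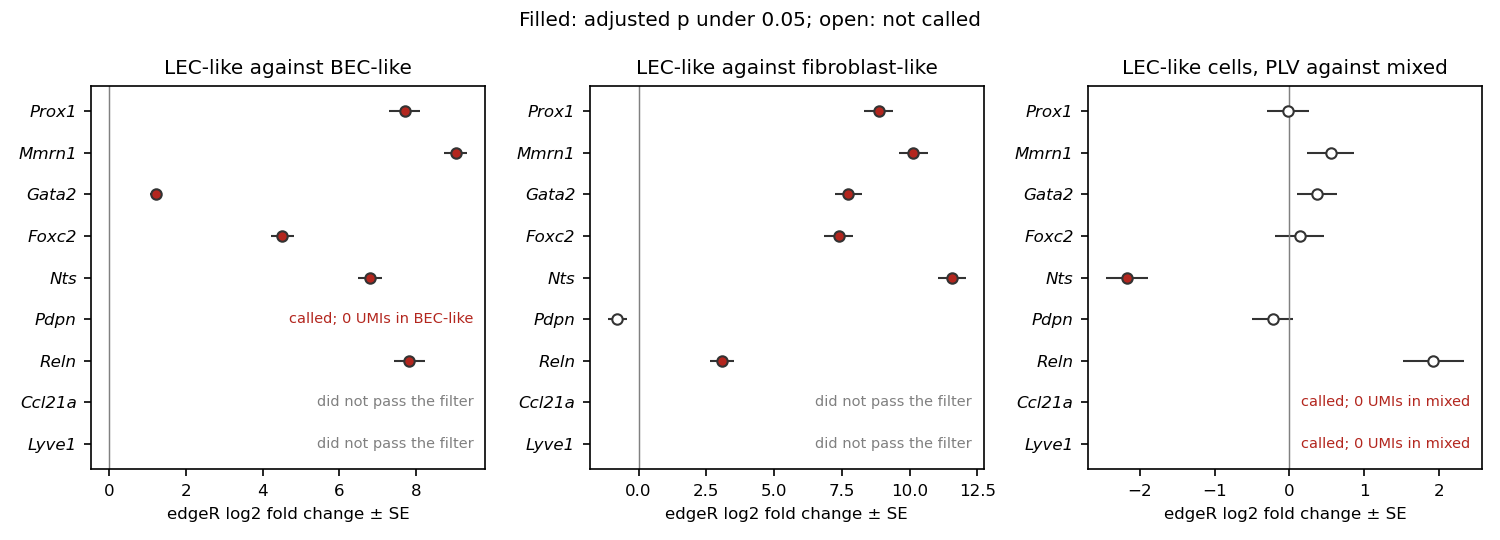
edgeR log2 fold changes with standard errors (horizontal) of 9 genes (vertical) in LEC-like against BEC-like sums, LEC-like against fibroblast-like sums, and LEC-like sums of PLV against mixed; filled points had an adjusted p under 0.05. Genes with 0 UMIs in the second group are named as called without a point. Points of genes with few UMIs there have no firm size, which holds for all but Gata2 in the first panel. In the second panel it holds for all but Reln and Pdpn. Prox1, Mmrn1, Nts, Foxc2, Gata2 and Reln lie to the right in the first 2 panels, and Nts to the left in the third.

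PLV and mixed LEC-like sums were then compared, 2 libraries against 1, with the lone mixed sample assumed to vary like the PLV samples. Of 9 genes tested, 3 were called, against 0.181% of 8864 genes in either direction (0.0564% higher in PLV and 0.124% lower). That share rests on 16 calls, which became 15 to 212 under other settings, 212 with no filter on low counts, while 2 to 4 of the 9 genes were called. In edgeR's fit, Ccl21a and Lyve1 were called higher in PLV, against 0 UMIs in mixed. No fold bound is given for either, because their UMIs came in blocks from few cells. Cells with Ccl21a held a median of 51.5 UMIs of it in PLV1 and 148 in PLV2. For Lyve1, 5 cells held 98.4% of the UMIs of PLV1. The 0 of 53 mixed cells allow a share of cells of up to 6.72% for each gene. In PLV2, 1 cell held 79 of the 83 Lyve1 UMIs, and without it Lyve1 stood at 4.54 CPM. That is near the 3.62 CPM that 3 UMIs would give in mixed. Without the cell with the most UMIs of the gene, Ccl21a stood at 509 and 517 CPM in PLV1 and PLV2 and Lyve1 at 35.5 CPM in PLV1, and the test was not run without these cells. With 0 UMIs in mixed, both passed the filter through the PLV sums alone, so the count of 3 is not read as support. These UMIs came from the 18 and 5 cells, and the 7 and 2 cells, given above, and the test of summed UMIs does not see how few cells hold them. Nts was lower in PLV, at -2.17 ± 0.28 (adjusted p = 0.0094), in 2 of 2 PLV libraries. Its SE and p draw on the spread between the 2 PLV libraries, since mixed has no replicate. They also draw on the spread of the other genes, with which edgeR moderates that of each gene. Without cells over 20000 UMIs, and so without the cell that held 40.4% of the mixed Nts UMIs, it was at -2.20 ± 0.28, from 454, 322 and 1516 CPM.

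The remaining genes did not pass. Reln was at 1.93 ± 0.41 (edgeR adjusted p = 0.12), 3.34 and 5.73 times the mixed level in PLV1 and PLV2, and it passed in 6 alternatives, with adjusted p between 6.2e-05 and 0.040. Prox1 was at -0.02 ± 0.28 (adjusted p = 0.99), a value whose sign turned in 3 alternatives, Mmrn1 at 0.55 ± 0.31 (adjusted p = 0.51) and Gata2 at 0.37 ± 0.27 (adjusted p = 0.61). Pdpn at -0.22 ± 0.28, which turned to 0.15 without cells over 20000 UMIs, and Foxc2 at 0.14 ± 0.33 did not pass either (adjusted p = 0.77 and 0.90). None of the 27 lymphatic-list genes and 21 valve-list genes tested was called, where 0.181% of all 8864 genes tested were called in either direction. That share is so low that the absence of calls is not read as a result about the lists. The other genes called between these sums included Hspa1a, Hspa1b and Dnajb1, which encode heat-shock proteins, and Xist, Ddx3y and Eif2s3y, which differ with the sex of the mice. Their part in the differences of Ccl21a, Lyve1 and Nts was not tested. Markers of muscle summed to 1006 CPM in the LEC-like cells of PLV1 against 21.3 CPM in PLV2 and 16.9 CPM in the mixed library, and markers of red blood cells to 1033, 71.9 and 109 CPM. Their part was not tested.

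The genes most alike to each member were ranked by Pearson's correlation of log2 levels (10 CPM added) over 18 sums, 6 classes in 3 libraries, among 11965 genes. Prox1 was most like Nrxn2 (0.99), Mmrn1 (0.99) and Dtx1 (0.99), and Mmrn1 like Dtx1 (0.996), Prox1os (0.996) and Glp1r (0.995). Prox1os is antisense to Prox1, and whether the counting used strand is not given in the sources used here. Nts was most like Prox1 (0.95) and Foxc2 like Slc39a4 (0.95). Ccl21a was most like Ubash3a (0.98) and Slc18a2 (0.97), Lyve1 like Ccl21a (0.91), Gata2 like Sh3tc1 (0.996) and Tal1 (0.995), Pdpn like Lrrn4cl (0.99), and Reln like Flrt3 (0.96). These correlations describe sums that share libraries and classes and carry no p.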

How the data were processed

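The deposited values are raw UMI counts for each gene in each barcode. Per the submitters' processing notes they were made with Cell Ranger on GRCm38; per the file headers the version was 6.1.2 for PLV, already filtered to 2649 and 730 barcodes, and 4 for mixed, which held all 896360 barcodes. The 2 hashtag features were not used, because the deposited note does not tie them to vessels, so mixed is 1 sample.

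Barcodes needed 500 UMIs and 300 genes or more, and no more than 15% mitochondrial and 20% haemoglobin UMIs; scrublet doublets (10, 3 and 3) were dropped, and more may have gone unseen. Clustering was done per library (scanpy 1.11.5, 2000 variable genes, 50 components, 15 neighbours, Leiden resolution 1, leidenalg 0.10.2) without the 10 genes and the lists. A cluster took a class name from at least 3 listed markers 2-fold above the other cells, unless its 10 leading genes spoke for another class.

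UMI sums were tested with edgeR 4.0.16 (TMM factors, filterByExpr, Benjamini-Hochberg threshold 0.05), with DESeq2 1.42.0 as an alternative. Classes of the same library were paired by that library. Tested on simulated counts with 4-fold changes, the test recovered 98.0% for LEC-like against BEC-like (9221 genes), 97.5% against fibroblast-like (9654 genes) and 71.5% for PLV against mixed (8744 genes). The simulated counts had the same spread for all genes and no library effect, and only genes above a set level were changed. These rates therefore need not hold for genes whose UMIs sit in few cells, such as Ccl21a and Lyve1. The 10 genes were named whatever their values, and per list and direction up to 4 called genes with the largest changes and at least 10 UMIs. Genes and lists were chosen with earlier results of these data known. PLV replicates are biological ones per the labels. The p-values rest on the spread between these few libraries, which edgeR moderates with that of other genes. SEs printed for edgeR were derived from the fold change and the F statistic.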

Additional observations from a re-analysis of the deposited data

Results flagged for a closer look

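Clusters that stayed unnamed entered no comparison, yet some held these genes above the limit of 3 UMIs that a count of 0 allows. In PLV replicate 2 an unnamed cluster of 75 cells, with a median of 1019 UMIs per cell and led by Cytl1, Gkn3 and Nts, had Prox1 at 768 CPM (90 UMIs), Mmrn1 at 896 CPM (105 UMIs), Nts at 820 CPM (96 UMIs) and Gata2 at 410 CPM (48 UMIs). The same cluster had Ccl21a at 239 CPM (28 UMIs), Foxc2 at 128 CPM (15 UMIs) and Reln at 102 CPM (12 UMIs). It had 5 of 10 LEC-like markers raised. In PLV replicate 1 the unnamed cluster of 86 cells led by Retnla had Lyve1 at 420 CPM (138 UMIs). In PLV replicate 2 an unnamed cluster of 37 cells with macrophage and mast cell genes had Lyve1 at 108 CPM (25 UMIs) and Gata2 at 125 CPM (29 UMIs). No explanation was tested.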

How the results depend on the processing

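Each of the 7 genes called against BEC-like sums kept its direction and its call in all 14 alternatives. So did each of the 6 called against fibroblast-like sums. The alternatives included a fit with no replicate block (1845 and 2594 genes called in all). Genes among them could pass the filter through the LEC-like sums alone, so these kept calls are not read as support. Without one library, 1680 to 2600 and 2363 to 3377 genes were called. With DESeq2 the count against BEC-like sums was 1611 in place of 2491. Pdpn was called lower than in fibroblast-like sums at -0.75 with no filter on low counts.

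For PLV against mixed no paired analysis was possible because the single mixed library came from other mice. The 16 genes called became 26 with DESeq2, 165 with the mitochondrial limit at 10%, 46 when cells needed 1000 UMIs, 99 if doublets stayed in, 67 with the 10 genes and lists in the clustering, 212 with no filter and 194 without cells over 20000 UMIs, the last chosen after seeing the data. The cause was not tested. Ccl21a (edgeR or DESeq2 adjusted p at most 0.00086) and Nts (at most 0.015) were called in all 10 tested settings. Lyve1 (at most 0.014) was called in the 9 that gave it an adjusted p, and DESeq2 gave none. With 0 UMIs in mixed, Ccl21a and Lyve1 could pass the filter through the PLV sums alone, so their repeated calls are not read as support. Prox1 turned from -0.02 to 0.0013 at resolution 0.5, 0.0018 when cells needed 1000 UMIs and 0.0054 with the genes in the clustering, and Pdpn to 0.15 without cells over 20000 UMIs. Leaving out a PLV library there left no residual degrees of freedom and gave values alone. Of 80 levels under alternatives, 70 moved by less than the PLV spread, and the 10 that moved more did so with cells over 20000 UMIs left out or with cells weighted equally. Among co-detection results in LEC-like cells, 10 were counted as moved under alternatives and 18 as the same. Shares of cells rest on 53 to 192 cells, and Ccl21a and Lyve1 on far fewer.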
